A study of Mus musculus with 8 samples.

Results

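The regions described here are the stretches of open chromatin around 41 interferon-stimulated genes in mouse alveolar macrophages (AMs), the macrophages that live on the air side of the lung. They were chosen by position: every peak of an ATAC-seq library that touched one of the 41 gene bodies or its flanks of 10 kb was taken, peaks sharing a base were merged across libraries, and merged regions with a peak in at least 2 of the 8 libraries were kept. This gave 153 regions out of 72711 over the whole genome. Of these, 44 had their summit within 1 kb of a transcription start site (TSS) of a member gene, 20 lay at the promoter of another gene, and 89 were distal to any promoter. ATAC-seq inserts sequencing adapters into accessible DNA with the Tn5 transposase, so a peak marks DNA that was open in many of the cells. The libraries came from 4 RXR-deficient samples (CD11cCre+ Rxrab fl/fl, here KO) and 4 controls (CD11cCre- Rxrab fl/fl, here WT). Both genotypes carried the same floxed Rxra and Rxrb alleles, and only KO carried Cre, which is driven by the CD11c promoter that AMs and dendritic cells use. The cells were sorted from the lung lavage of adult mice, and the comparison asks how loss of the retinoid X receptors RXRα and RXRβ alters chromatin accessibility. The replicates are numbered 1_2, 1_3, 2 and 3 in KO and 1_2, 1_3, 3 and 4 in WT. They are labelled as individual biological replicates, but the labels do not say whether 1_2 and 1_3 share an animal, so p-values measure only the spread between these samples.

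Interferons bind receptors on the cell surface that activate JAK kinases, and these phosphorylate STAT proteins. STAT2 and IRF9 belong to a complex that binds the interferon-stimulated response element (ISRE), a pair of GAAA repeats in the promoters of antiviral genes. Dimers of STAT proteins bind the gamma-activated site (GAS), a short palindrome. The induced genes encode proteins that sense viral RNA, degrade it, block its translation or its packaging, and present viral peptides. Macrophages keep a low level of this program in the absence of infection, and the lineage factor PU.1 can bind together with an IRF protein on a composite of an ETS and an IRF motif (ETS-IRF). RXRs act mainly as partners of other nuclear receptors, such as PPARγ, on repeats of AGGTCA spaced by a single base (DR1).

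The ISRE letters stood close to the summit of many of these promoters, and the sequences below show them in place. Each is read from the GRCm38 (mm10) genome, 5′ to 3′ on the strand of the gene, and stops before the transcribed part where the element is near the TSS. Capitals mark each match to GAAANNGAAA or its reverse complement. They are shown because the ISRE was the most frequent in these promoters of the motifs searched for.
Ifit1 (chr19:34640779-34640838, plus strand): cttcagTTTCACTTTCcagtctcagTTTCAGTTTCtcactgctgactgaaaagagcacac
Mx2 (chr16:97535119-97535178, plus strand): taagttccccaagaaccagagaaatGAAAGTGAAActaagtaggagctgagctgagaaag
Rsad2 (chr12:26456538-26456597, minus strand): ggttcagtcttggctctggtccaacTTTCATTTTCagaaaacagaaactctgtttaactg
Oas1a (chr5:120907522-120907570, minus strand): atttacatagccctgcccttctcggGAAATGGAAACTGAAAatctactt
Oas2 (chr5:120749890-120749949, minus strand): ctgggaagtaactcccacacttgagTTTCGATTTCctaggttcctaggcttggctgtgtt
Oas3 (chr5:120777700-120777759, minus strand): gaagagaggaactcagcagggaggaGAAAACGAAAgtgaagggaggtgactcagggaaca
Usp18 (chr6:121245822-121245881, plus strand): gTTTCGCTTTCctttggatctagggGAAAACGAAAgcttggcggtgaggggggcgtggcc
Zbp1 (chr2:173218940-173218999, minus strand): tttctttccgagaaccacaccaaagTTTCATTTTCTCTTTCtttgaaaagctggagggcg
Rtp4 (chr16:23609869-23609918, plus strand): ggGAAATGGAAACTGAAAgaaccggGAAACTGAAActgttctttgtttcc
Gbp5 (chr3:142496744-142496803, plus strand): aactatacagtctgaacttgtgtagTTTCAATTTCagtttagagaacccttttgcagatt
The centre of the ISRE lay at -62 bases from the TSS in Ifit1, at -67 in Oas2, at -69 in Oas3 and at -116 in Rsad2. In Mx2 it lay much farther out, at -932. In Ifit1 and Usp18 a pair of elements stood in the same window, and in Zbp1, Oas1a and Rtp4 successive elements overlapped by sharing a repeat.

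The deposited values are peak lists, with 60363 to 65009 peaks per KO library and 61240 to 72484 per WT library. The number of tags (read ends, each extended to 200 bp) piled up at each summit was worked back from the fold and p-value of the peak, and was whole for 100% of peaks within a relative error of 1e-05. Background was 1.12 to 1.86 tags per 200 bp in KO and 1.42 to 2.26 in WT, and the smallest summits called held 6 to 9 tags. A missing peak means only that none was called there, and need not mean fewer tags than that. A region 29658 bases past the Trim25 TSS held 78 to 139 unscaled tags in 3 KO and 2 WT libraries, with no peak in the others. Scaled summit tags below are tags multiplied by a factor that makes the medians of all libraries equal. Of 10 AM marker genes, 8 had a promoter peak in every library, while Chil3 and Krt79 had none in any. T-cell and B-cell markers had none. A promoter peak was present in each library at 2 of 3 dendritic-cell, 3 of 5 neutrophil and 2 of 4 epithelial markers. For the 3 endothelial markers it was 1 to 2 per library. The summed scaled tags of each of these 4 cell types overlapped between genotypes. The 4 monocyte markers, of which 3 to 4 had a peak per library, had summed scaled tags of 331 to 349 in KO and 218 to 301 in WT. These ranges did not overlap, but the sums do not show which of the markers differed. In the Cre target Rxra, a region inside the gene (chr2:27744546-27744950) had a peak of 38 to 46 tags in all 4 WT libraries and none in KO, as the labels would have it. It was 1 of 16 Rxra regions. Another, at -15405 bases from the TSS, held 74 to 104 unscaled tags in KO and 64 to 88 in WT, and was higher in KO by the test described below.

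Most of the 41 genes had open promoters in both genotypes. Of the 41, 34 had a promoter summit in all 8 libraries, and 40 had at least 1 region of any kind. Ifi44 had no region at all, and Isg15, Cxcl9 and Ifitm3 had no promoter summit in any library. Isg15 encodes a ubiquitin-like modifier, Cxcl9 a chemokine that draws T cells, and Ifitm3 a membrane protein that blocks viral entry. Peaks were built from alignments of high mapping quality, so DNA that is repeated in the genome can lack one, and its part in these absences was not tested. Another 3 genes had a promoter summit in some libraries. Ifit3 had a peak in KO replicate 2, at 18.0 scaled tags, and in WT replicate 1_3, at 6.71. Oasl2 had a promoter summit in 1 WT library, and Gbp5 had one in 7 libraries, with 22.5 to 30.4 scaled tags in 3 KO libraries and 22.9 to 32.9 in the 4 WT libraries. None of these 3 promoters had peaks that split cleanly by genotype.

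Promoter strength varied widely among the members. Set against all 13266 promoters with a peak in every library, the 37 member promoters measured in every library had a median percentile of 34.0 by mean WT tags, and 11 lay above the median promoter. The range ran from percentile 3.07 for an upstream promoter of Adar, the RNA-editing deaminase, to 92.9 for Stat2. Stat2 held 325 ± 25.1 scaled tags in WT (SD, n = 4), followed by Trim25 at 213.6 and Ifih1 at 195.8, means of the same 4 libraries. Trim25 encodes the ubiquitin ligase that activates the RNA sensor RIG-I, and Ifih1 the RNA sensor MDA5. At the lower end stood Oasl1 at 25.2, Parp14 at 25.6, Oas1a at 29.9 and Mx1 at 31.0. Member promoters were also poorer in CpG: 14 of 44 (31.8%) had an observed over expected CpG ratio above 0.6 in the 301 bases around the summit, against 65.0% of all promoters. Read against promoters of the same CpG class, the median percentile was 38.0 for the CpG-poor members and 40.9 for the CpG-rich ones.

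**Figure D1:**
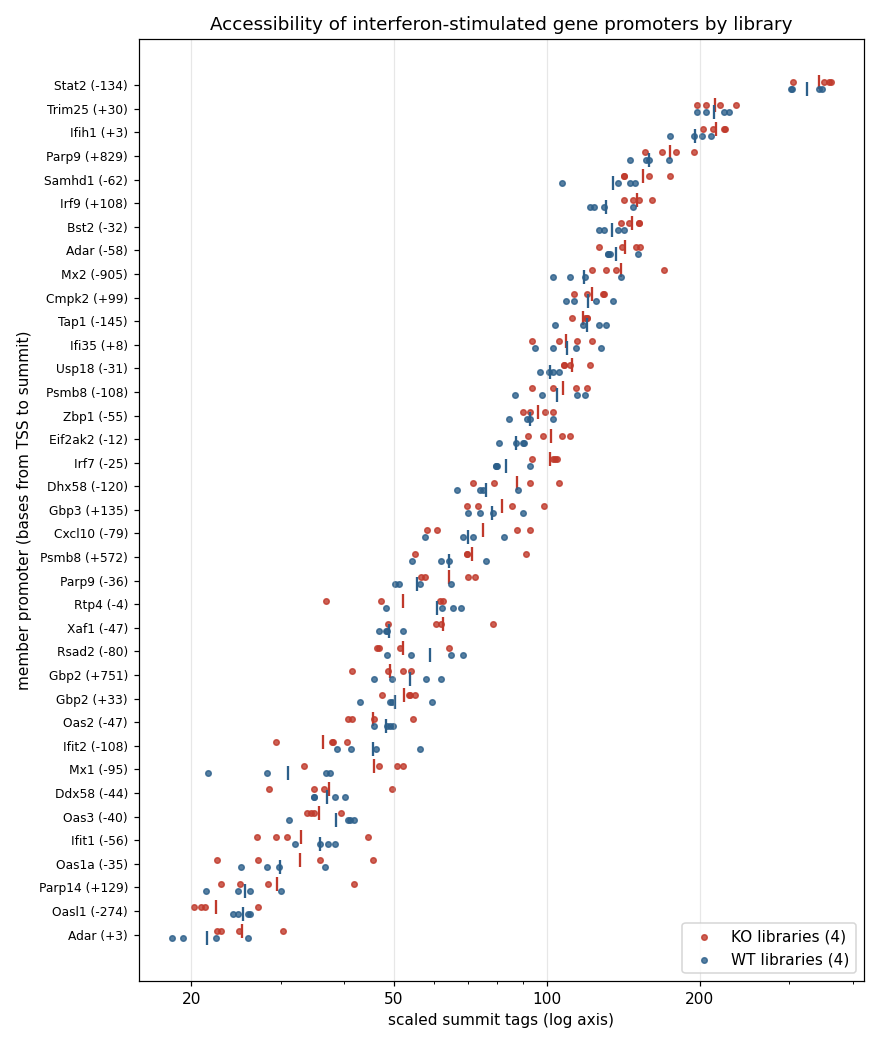
Scaled summit tags (log axis) at the 37 member promoters with a peak in every library, ordered by the mean over all KO and WT libraries. Each point is 1 library, the vertical marks are means of 4 KO and 4 WT libraries, and the number beside each gene is the distance in bases from TSS to summit. The promoters span from about 20 tags at Adar to over 300 at Stat2, and the points of both genotypes overlap at all but 3 promoters, Eif2ak2, Usp18 and Irf7.

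The ISRE was the motif most often found. Within 100 bases of the summit, GAAANNGAAA on either strand was present in 19 of 44 member promoters, or 43.2% (exact 95% binomial interval 28.3 to 59.0%), against 1.93% of all 16204 promoters. The nearest element lay a median of 16 bases from the summit, and in 18 of the 19 it lay within 50 bases. Distal member regions held it in 4 of 89, or 4.49%, against 3.02% of all distal regions. The GAS (TTCNNNGAA) stood in 10 member promoters, 22.7% against 4.19%, among them Irf9, Samhd1, Zbp1 and Gbp5. The ETS-IRF composite (GGAANNGAAA) stood in 8, 18.2% against 2.22%, among them Trim25, Cmpk2, Parp14 and Parp9. In all, 22 of 44 member promoters held an ISRE or a composite, and 5 held both, since these patterns share most of their letters. The DR1 (AGGTCANAGGTCA, at most 2 mismatches), the element RXR dimers recognise, was in 1 member promoter, that of Cxcl10, 2.27% against 2.06%, and in 6 distal member regions, 6.74% against 4.73%. These shares describe sequence only, and no binding was measured in these libraries. The intervals cover counting error, and neighbouring family members share ancestry and so sequence.

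**Figure D2:**
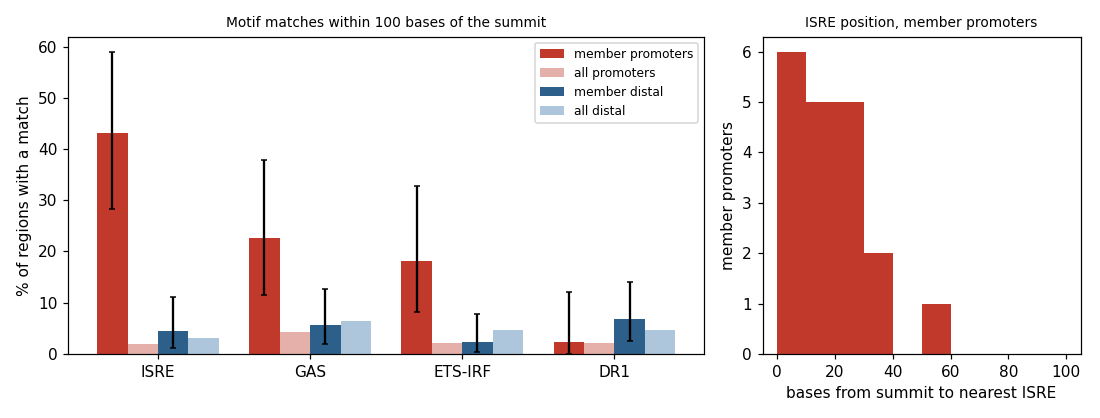
Left, the percentage of regions with each motif within 100 bases of the summit, in member promoters (n = 44), all promoters (n = 16204), member distal regions (n = 89) and all distal regions (n = 56507), with exact 95% binomial intervals on the members. Right, the distance in bases from summit to the nearest ISRE in the 19 member promoters that have one, 18 of them within 50 bases.

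Few of these regions differed between the genotypes. Peaks in all 8 libraries allowed a test for 108 of the 153 member regions, with limma on log2 summit tags, two-sided, KO minus WT, and p-values adjusted by Benjamini-Hochberg over all 47499 regions tested. At an adjusted p under 0.05, 5 of 108 passed (4.63%), 2 higher and 3 lower in KO, where the background over all regions was 12.8%, of which 5.81% higher and 7.03% lower. At an unadjusted p under 0.05 there were 18 of 108 (16.7%), against 26.2% of all regions. Among promoters 1 of 37 members passed (2.7%), against 9.54% of all promoters, and among distal regions 2 of 53 (3.77%), against 14.1% of all distal regions. The remaining 2 calls were at promoters of other genes, out of 18 tested. The median log2 difference was 0.04 over the members and 0.04 over all regions. It was 0.08 over member promoters and 0.09 over all promoters, and -0.03 over distal members and 0.01 over all distal regions. Member differences ran from -0.48 to 0.57, and the 95% interval of every one of the 108 lay within a 2-fold change in either direction. For 91 of the 108 (84.3%) the interval lay within 1.5-fold, against 72.5% of all regions.

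**Figure D3:**
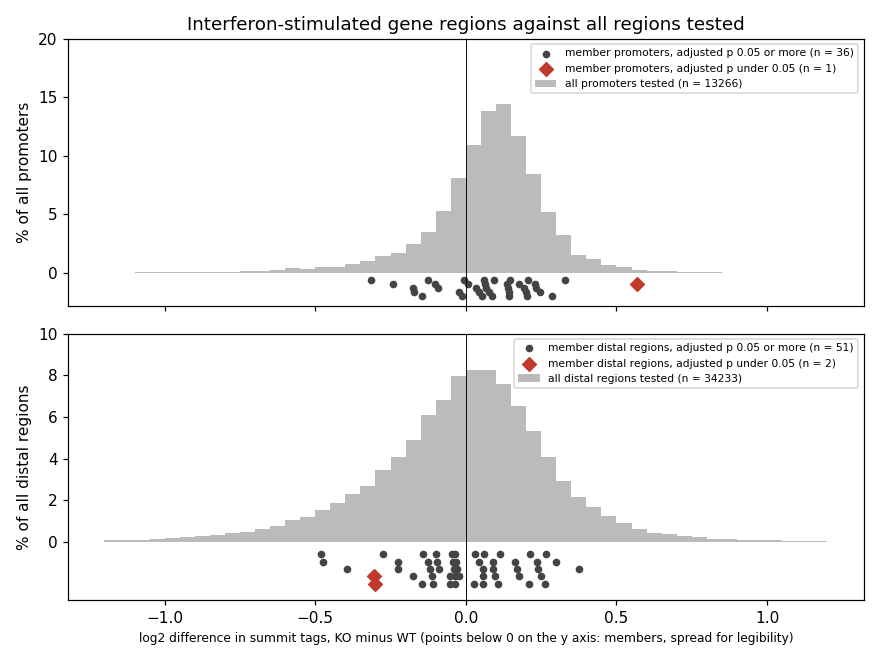
Log2 difference in summit tags, KO minus WT, for member promoters (top, points) and member distal regions (bottom, points) under the distribution of all 13266 promoters and all 34233 distal regions tested (grey, percent of regions). Red diamonds passed an adjusted p under 0.05: 1 promoter and 2 distal regions.

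The only member promoter past the threshold was that of Mx1, a gene of the Mx GTPase family. Its scaled tags were 46.8, 33.3, 50.7 and 52.2 in KO and 36.8, 21.6, 37.5 and 28.2 in WT. KO was higher on average, 45.8 ± 8.59 against 31.0 ± 7.57 (SD, n = 4 each), but KO replicate 1_3 fell inside the WT range. The difference was 0.57 ± 0.19 on the log2 scale (SE), 1.48-fold, with an adjusted p of 0.033 by limma. The region (chr16:97462773-97463205, just upstream of the gene on the minus strand) held none of the 4 motifs within 100 bases of its summit. Its summit sequence is shown in lower case for that reason.
Mx1 (chr16:97462971-97463031): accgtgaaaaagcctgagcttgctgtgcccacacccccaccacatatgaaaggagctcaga
Its neighbour Mx2 is a polymorphic pseudogene in the annotation used. Whether Mx1 or Mx2 makes a working protein in these mice was not tested. The main Mx2 promoter region, with its summit at -905 bases from the TSS, read 123, 137, 131 and 170 in KO and 119, 140, 111 and 103 in WT. Here the groups overlapped, with a log2 difference of 0.25 ± 0.11 and an adjusted p of 0.13. A second Mx2 region closer to the annotated start had a peak in 3 libraries of each genotype and was not tested.

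Trim25 carried 2 of the 3 regions that were lower in KO. The call that held under most alternatives, 11 of 14, was a region 28759 bases past the Trim25 TSS (chr11:89027885-89028313, intergenic). It read 145, 139, 153 and 130 in KO and 174, 163, 197 and 170 in WT, so every KO library lay below every WT library. The log2 difference was -0.31 ± 0.09, with an adjusted p of 0.0225. At the promoter of the noncoding gene Gm11496, at -2830 bases from the Trim25 TSS (chr11:88996324-88996794), tags were 115, 113, 149 and 103 in KO and 151, 139, 155 and 156 in WT. KO replicate 2 overlapped WT there, and the log2 difference was -0.33 ± 0.10 with an adjusted p of 0.0266. The Trim25 promoter itself read 206, 198, 219 and 236 in KO and 206, 198, 223 and 228 in WT. These were nearly the same values, with a log2 difference of 0.01 ± 0.09. The strongest of all member distal regions, 25058 bases past the Trim25 TSS, held 543 to 585 tags in KO and 526 to 711 in WT and did not pass the test (log2 difference -0.12 ± 0.08, adjusted p = 0.325).
The lower Trim25 regions are shown with the match nearest to their summit in capitals, an ETS-IRF composite in the distal region and a GAS in the Gm11496 promoter.
Trim25 distal (chr11:89028164-89028213): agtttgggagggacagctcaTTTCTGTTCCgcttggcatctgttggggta
Gm11496 promoter (chr11:88996581-88996629): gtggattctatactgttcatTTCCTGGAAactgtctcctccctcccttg

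The third lower region lay 37152 bases downstream of an upstream TSS of Rtp4, in an intron of its long isoform (chr16:23557168-23558046). Rtp4 encodes a chaperone of receptors that is also induced by interferon. Tags were 127, 114, 95.8 and 115 in KO and 144, 130, 132 and 151 in WT. Again no KO library reached the WT range, and the log2 difference was -0.30 ± 0.10 with an adjusted p of 0.0454. A weaker intronic region 17170 bases upstream of the nearest Rtp4 TSS read 23.9, 20.2, 24.8 and 23.7 in KO and 28.1, 31.3, 37.5 and 33.8 in WT. It too did not overlap between genotypes, yet its adjusted p was 0.0777. The Rtp4 promoter, whose ISREs are shown above, read 36.8, 62.6, 47.3 and 61.7 in KO and 48.4, 67.8, 62.2 and 65.4 in WT, overlapping values with an adjusted p of 0.341.

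The second higher region was the promoter of AW011738, at -2324 bases from the Isg15 TSS (chr4:156202932-156203757). It read 154, 118, 103 and 128 in KO and 103, 93.9, 97.0 and 98.1 in WT, with a log2 difference of 0.34 ± 0.11 and an adjusted p of 0.0333. KO replicate 2 fell inside the WT range. Isg15 itself had no promoter summit.

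These 5 calls were near the threshold and depended on the scaling and on single libraries. Without KO replicate 3 none of 109 member regions passed by limma (13 at an unadjusted p under 0.05), without WT replicate 3 a single region passed and without WT replicate 1_2 there were 2. Without KO replicate 1_2 or KO replicate 2 there were 3. The share of all regions that passed was also lower in these fits than the 12.8% of the main fit. It was 9.73% without KO replicate 3, 9.39% without WT replicate 3 and 10.4% without WT replicate 1_2. Without KO replicate 1_2 or KO replicate 2 it was 10.1%. When libraries were scaled to equal background instead of equal median summits, none passed (8 at an unadjusted p under 0.05, with 5.4% of all regions). The direction of each of the 5 was kept in all 14 alternative fits. Of these 14, Mx1 and the Gm11496 promoter passed in 6 each, and the Trim25 distal region in 11. Rtp4 and the promoter near Isg15 passed in 5 each. The adjusted p ranged from 0.0125 to 0.183 for Mx1, from 0.00658 to 0.211 for the Trim25 distal region, from 0.00362 to 0.173 for the Gm11496 promoter, from 0.0262 to 0.257 for Rtp4 and from 0.00422 to 0.459 for the promoter near Isg15. The summed tags of the monocyte marker promoters given above also stood higher in KO than in WT, and their part in these calls was not tested.

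**Figure D4:**
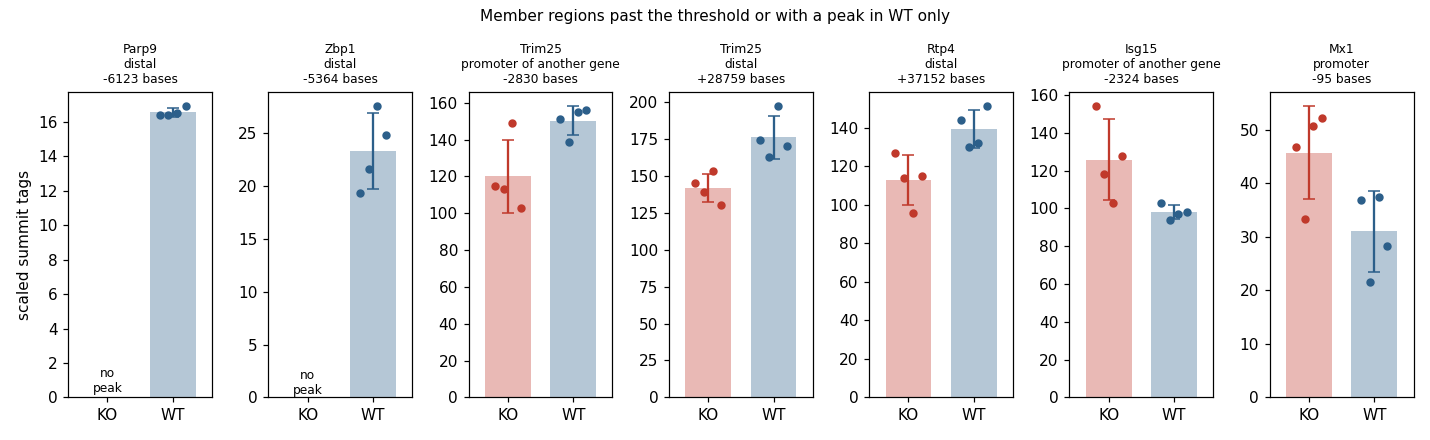
Scaled summit tags at the 7 member regions that passed an adjusted p under 0.05 or had a peak in WT only; points are libraries, bars are means of 4 libraries and error bars are SD. Parp9 and Zbp1 have no KO peak; at the Trim25 distal (+28759) and Rtp4 (+37152) regions the KO points all lie below the WT points.

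The presence of peaks was counted as well. A KO library had a peak in 127.5 ± 7.14 of the 153 regions (SD, n = 4, range 120 to 137) and a WT library in 134.2 ± 6.18 (range 129 to 143). Over all regions, KO libraries held 79.9 to 85.1% and WT libraries 80.7 to 93.0%. A peak in all 4 WT and no KO library was found at 2 of 153 member regions, where 0.82% of all regions had this pattern. The reverse, a peak in all 4 KO and no WT library, was found at none, where the share of all regions was 0.285%. The WT-only regions were weak. One lay 5364 bases upstream of Zbp1, which encodes a sensor of Z-form nucleic acids (chr2:173224031-173224483, intergenic), with 20, 29, 30 and 22 unscaled tags in WT. The other lay 6123 bases upstream of Parp9, in a coding exon of its neighbour Dtx3l (chr16:35932171-35932529), with 17, 22, 18 and 15. Parp9 and Dtx3l form a complex that modifies histones. Neither region held any of the 4 motifs near its summit.
Zbp1 upstream region (chr2:173224257-173224317): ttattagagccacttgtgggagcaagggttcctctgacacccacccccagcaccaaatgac

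Among regulators of the response, Stat2, Irf9 and Irf7 promoters were open in every library and none passed the test. Stat2, a subunit of the ISRE-binding complex, read 359, 305, 362 and 351 in KO and 302, 304, 349 and 344 in WT, a difference of 0.09 ± 0.08 on the log2 scale. Irf9, which gives that complex its DNA contact, read 161, 152, 148 and 142 in KO and 122, 130, 124 and 148 in WT, a difference of 0.21 ± 0.10 with an adjusted p of 0.162. Irf7, the factor that amplifies interferon production, read 103, 105, 104 and 93.7 in KO and 92.9, 79.7, 79.6 and 80.0 in WT. Every KO library at Irf7 was above every WT library, though the lowest KO and the highest WT value were close. Its log2 difference was 0.29 ± 0.11 with an adjusted p of 0.0869, over the threshold. Groups of tags that did not overlap occurred at 6 of 108 member regions (5.56%), against 16.2% of all regions. They were the promoters of Irf7, Usp18 and Eif2ak2, the Trim25 distal region and both Rtp4 intronic regions.

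Usp18, which removes ISG15 from proteins and dampens signalling at the interferon receptor, had promoter tags of 122, 108, 108 and 111 in KO and 103, 101, 106 and 96.9 in WT. The gap between the groups was small and the adjusted p was 0.39 (log2 difference 0.15 ± 0.11). Eif2ak2, which encodes the kinase PKR that halts translation, read 98.6, 91.9, 107 and 111 in KO and 87.1, 80.5, 89.7 and 90.2 in WT. That promoter had a log2 difference of 0.23 ± 0.11 and an adjusted p of 0.176. It was named after its values were seen, as was the strong Trim25 distal region.

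The antiviral effectors of the IFIT and OAS families had weak promoters, at percentiles 5.37 to 18.9 of all promoters over the 6 that were tested. Ifit1, which binds viral RNA caps, read 26.9, 44.5, 29.3 and 30.8 in KO and 35.8, 32.0, 38.4 and 37.2 in WT, with a log2 difference of -0.15 ± 0.18. Ifit2 read 37.8, 40.4, 29.3 and 38.0 in KO and 38.7, 46.2, 41.2 and 56.4 in WT, a difference of -0.32 ± 0.17 with an adjusted p of 0.23. The groups overlapped at both. Oas1a, Oas2 and Oas3 encode the synthetases that activate RNase L. Oas1a read 35.8, 45.5, 27.1 and 22.5 in KO and 25.1, 29.8, 36.6 and 28.2 in WT. Oas2 read 45.8, 54.6, 40.6 and 41.5 in KO and 49.3, 49.9, 45.8 and 48.5 in WT. Oas3 read 33.8, 39.4, 34.9 and 34.4 in KO and 40.6, 41.0, 31.1 and 41.7 in WT. All of these overlapped, with log2 differences of 0.09 ± 0.20, -0.09 ± 0.15 and -0.10 ± 0.17 and adjusted p of 0.808, 0.756 and 0.745. The sign of the Oas1a value turned when KO replicate 1_3 was left out (-0.09). A further Oas1a region 477 bases past the TSS had a peak in 3 KO libraries and 1 WT library, at 9.09 to 14.7 scaled tags, and was not tested.

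Rsad2, the radical enzyme viperin, read 46.8, 51.5, 64.2 and 46.3 in KO and 64.8, 68.6, 54.0 and 48.5 in WT. These overlapped, with a log2 difference of -0.17 ± 0.15 and an adjusted p of 0.501. Cxcl10, a T-cell chemokine, read 87.6, 92.9, 60.9 and 58.1 in KO and 71.6, 68.6, 57.7 and 82.3 in WT. Its difference of 0.08 ± 0.14 had an adjusted p of 0.777, and its sign changed when KO replicate 1_3 was left out (-0.05). For the related Cxcl9, the nearest region was the promoter of Art3, at -3245 bases from its TSS. It read 27.9, 57.6, 25.9 and 38.0 in KO and 52.2, 52.9, 50.3 and 42.8 in WT, a difference of -0.47 ± 0.18 with an adjusted p of 0.0842. The KO libraries spread over more than the whole WT range there. Xaf1, a gene tied to cell death, read 48.8, 60.6, 62.0 and 78.3 in KO and 52.2, 48.4, 46.7 and 48.5 in WT. Its log2 difference of 0.33 ± 0.15 was the largest among promoters of member genes after that of Mx1, with an adjusted p of 0.143.

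The other groups of members are given by their ranges, and none of their promoters passed limma at an adjusted p under 0.05. The 6 tested promoters of Trim25 and the nucleic acid sensors Ifih1, Ddx58, Dhx58, Eif2ak2 and Zbp1 had log2 differences from -0.01 to 0.23 (1 at an unadjusted p under 0.05). Those of the guanylate-binding proteins Gbp2 and Gbp3, which attack the vacuoles of pathogens, ran from -0.13 to 0.07 over 3 regions (0 at an unadjusted p under 0.05). In antigen processing, the promoter shared by the peptide transporter Tap1 and the immunoproteasome subunit Psmb9 and the pair of Psmb8 promoters ran from -0.02 to 0.14 (0 at an unadjusted p under 0.05). The 3 promoters of Parp9 and Parp14 ran from 0.14 to 0.20 (0 at an unadjusted p under 0.05). All of these lay well within a 1.5-fold change as point estimates. Of the 18 tested member promoters with an ISRE, none passed (2 at an unadjusted p under 0.05), with a median of 0.07. Of the 19 without one, 1 passed, with a median of 0.09. Over the whole genome 7.45% of the 255 tested promoters with an ISRE passed, 8 higher and 11 lower.

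Distal regions made up most of the members: 40 were intronic, 39 intergenic and 10 exonic, and 35 of the 41 genes had at least 1. The 53 with a peak in every library were ranked by mean WT tags among the 34233 distal regions with a peak in every library. Their median percentile was 51.3, so these 53 were of ordinary strength. The other distal members were not ranked. The 3 largest distal differences not yet given did not pass limma, though all 3 had an unadjusted p under 0.05. An intronic region of Usp18, 5473 bases past its TSS, read 11.9, 25.3, 21.4 and 11.9 in KO and 16.4, 25.3, 22.9 and 31.6 in WT (log2 difference -0.47 ± 0.23, adjusted p = 0.177). A region 8283 bases past Psmb8, in an intron of Tap2, read 21.9, 21.2, 24.8 and 24.9 in KO and 23.2, 27.6, 33.0 and 41.7 in WT (-0.39 ± 0.19, adjusted p = 0.187). Both had overlapping groups. An intronic region of Ifih1, 2621 bases past its TSS, was the distal region with the largest difference upwards. It read 78.6, 64.7, 72.1 and 98.4 in KO and 65.8, 55.9, 49.4 and 69.9 in WT (0.38 ± 0.14, adjusted p = 0.0698). No distal member was called higher by limma (2 at an unadjusted p under 0.05).

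The genes that carry the interferon signal, which are not among the 41, were read in the same way. Of 20 receptor, kinase, IRF, adaptor and feedback genes, 19 were matched, with 94 tested regions, and 11 were higher and 3 lower in KO (14.9%, against 12.8% of all regions). Ifnb1, the gene of interferon beta itself, had no promoter region. The clearest calls were at Socs3, which encodes a feedback inhibitor of cytokine receptors that signal through JAK and STAT3. A region 5615 bases from its TSS (chr11:117963246-117963809, intergenic) read 178, 149, 158 and 158 in KO and 85.1, 78.3, 85.1 and 83.4 in WT. All KO libraries were far above all WT libraries, with a log2 difference of 0.95 ± 0.10 and an adjusted p of 2.33e-09. The Socs3 promoter read 222, 200, 251 and 208 in KO and 137, 127, 142 and 168 in WT, 0.62 ± 0.10 higher on the log2 scale with an adjusted p of 5.19e-06. Both passed in all 14 alternatives.

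Receptor genes were among the higher calls. Single regions at Ifnar1 (0.29 ± 0.10, adjusted p = 0.0396), Ifnar2 (0.38 ± 0.10, adjusted p = 0.00441) and Ifngr1 (0.51 ± 0.16, adjusted p = 0.0295), and the Ifngr2 promoter (0.25 ± 0.09, adjusted p = 0.0468), passed as higher in KO. So did the promoter of the kinase gene Jak2 (0.35 ± 0.11, adjusted p = 0.0187). Of the 14 alternative fits, the Ifnar2 region passed in 13, Jak2 in 9, Ifngr1 in 8, and Ifnar1 and Ifngr2 in 4 each, with adjusted p up to 0.588 for Ifnar1 and 0.691 for Ifngr2. Jak1 had 1 intronic region lower (-0.46 ± 0.10, adjusted p = 0.00131) and 2 higher. Regions at Irf1 and near Tbk1, the kinase that activates IRF3, were lower, and a region at Irf5 was higher. The region near Tbk1 lay in an intron of Xpot. With equal background scaling the count over these genes dropped to 2 higher and 1 lower, and without KO replicate 2 or without WT replicate 3 it was 9 in all. The shares of all regions that passed in these fits were 5.4%, 10.1% and 9.39%. The summed tags of the monocyte marker promoters stood higher in KO as well, and their part in these calls was not tested. A further list of 35 interferon-stimulated genes outside the 41, of which 33 were matched, gave 4 higher and 2 lower of 93 tested regions (6.45%), 6 of its regions being members as well. With equal background scaling this count was 2. A region 9113 bases upstream of Isg20, an RNA exonuclease gene, was lower by -1.02 ± 0.15 (adjusted p = 2.56e-06). It lay in an intron of Aen, whose TSS was the nearest. A region near Ddx60, a helicase gene, was higher by 0.74 ± 0.17 (adjusted p = 0.00179) and lay in an intron of 4930512H18Rik. Both passed in all 14 alternatives.

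**Figure D5:**
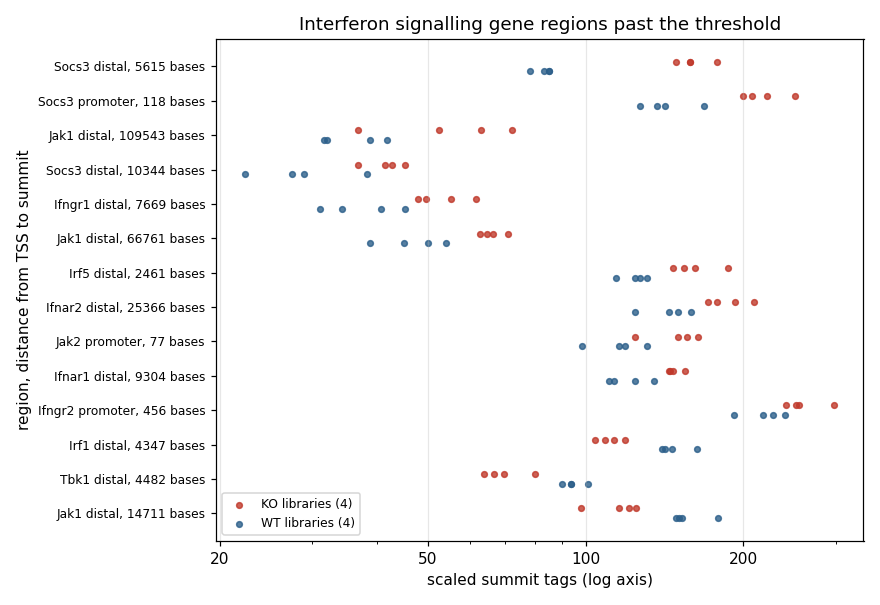
Scaled summit tags (log axis) at the 14 regions of interferon signalling genes that passed an adjusted p under 0.05, ordered by log2 difference with the largest KO excess at the top; each point is 1 of 4 KO or 4 WT libraries, and labels give the distance in bases from TSS to summit. The genotypes separate at both leading Socs3 regions.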

How the data were processed

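ATAC-seq was measured in sorted AMs of 4 KO and 4 WT samples, grouped by the genotype in the labels. Per the paper's methods, the authors used Cutadapt for trimming and Bowtie2 for alignment to mm10, dropped duplicate and low-quality alignments, and called peaks on each library with MACS3 at a q-value of 0.05, with tags extended to 200 bp. The deposited peak lists give a summit fold (a ratio over background), −log10 p-values and −log10 q-values, and a score derived from the q-value. They hold no read counts, so the count test of the study was replaced by limma 3.58.1 (R 4.3.3) on log2(summit tags + 0.5), centred on each library's median, over the 47499 regions called in every library. Tags were worked back from fold and p. In simulated data, with a spread set in advance, 82.5% of 200 regions changed 2-fold were recovered. Changes as small as those of the member regions were not simulated, so this share does not apply to them.

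Gene models were GENCODE M21 (GRCm38). Mx2, a polymorphic pseudogene there, was kept. A gene of the signalling list is not reported here, and its regions are left out of that list's counts. Members and lists were chosen with earlier results of these data known. Values are given for regions past the threshold or with one-sided peaks, the 6 member promoters and 6 distal regions of largest difference, and 16 core promoters. Alternatives covered scaling, pseudocount, missing peaks, peak stringency, flank size, motif window, a replicate block and leaving out each library. Tests were two-sided. Counting error is the only error in the binomial intervals, and depth is known only through peak counts and background tags.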

Additional observations from a re-analysis of the deposited data

Results flagged for a closer look

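In 2 of 58 groups of 4 libraries a single library stood apart from the other 3, by a gap larger than Dixon's 95% limit for 4 values. Chance flags about 1 in 20 such groups. At the Oas3 promoter, WT replicate 3 held 31.1 scaled tags, below the 40.6, 41.0 and 41.7 of the other WT libraries. At the Irf7 promoter, WT replicate 1_2 held 92.9, above the 79.7, 79.6 and 80.0 of the others. The adjusted p of Irf7 stayed over 0.05 in all 14 alternatives, between 0.0746 and 0.653.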

How the results depend on the processing

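Of 108 tested member regions, 5 passed. With equal background scaling there were 0 (8 at an unadjusted p under 0.05), where 5.4% of all regions passed. With 1_2 and 1_3 averaged there were 3, where 10.4% of all regions passed. With no flank 2 of 57 passed and with a flank of 25 kb 9 of 149, in the main fit, where 12.8% of all regions passed. Leaving out each library in turn gave 0 to 6, where 9.39% to 13.2% of all regions passed. The fit with a replicate block gave 6, 4 higher and 2 lower, where 14.5% of all regions passed. The main fit had no block, since the study describes none. Same-numbered libraries deviated together with r of 0.06 (1_2), 0.12 (1_3) and 0.04 (3). In these deviations each of the 3 KO libraries with a same-numbered WT library correlated best with that one. The labels do not say whether the numbers pair samples. Equal background scaling moved the median difference to -0.0116 over all members, 0.022 over promoters and -0.09 over distal regions, and the median of all regions to -0.01. The count of WT-only regions was 0 with a flank of 5 kb or none and 2 to 4 when a library was left out (4 without WT replicate 4). With regions required in 4 libraries, KO libraries held 91.9% and WT 93.9%, against 83.3% and 87.7%. An ISRE anywhere in the region was in 13.5% of distal members, against 6.67% of all distal regions. Within 50 bases, the GAS was in 11.4% of promoters and 1.12% of distal regions and the DR1 in 0.0% of promoters. With 1_2 and 1_3 averaged, Cxcl10 (-0.0176) and Oas1a (-0.0611) changed sign. Leaving out a library, Cxcl10 ran from -0.0484 to 0.190 and Oas1a from -0.0921 to 0.253. Of the alternative values for single regions, 275 kept direction and side of the threshold, 37 lost the call, 4 gained one and 6 changed sign. Only the 5 called regions, with 14 alternatives each, could lose a call, so the 37 are to be read against those alone. Depth limits weak regions most, and a missing peak says only that none was called, which need not mean fewer than about 6 to 9 tags.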
